A study of Homo sapiens with 6 samples.

Results

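Metallothioneins are small, cysteine-rich proteins that bind zinc, copper and cadmium, and liver cells are a classic site of their induction. Their genes are switched on by MTF1, a zinc-sensing transcription factor that binds metal response elements, and MTF1 also drives SLC30A1, the exporter that moves zinc out of the cell. Import runs the other way, through the SLC39 (ZIP) family, of which SLC39A10 and SLC39A14 sit at the cell surface. The genes described here are 10 named members of this system: the metallothioneins MT1E, MT1F, MT1G, MT1M, MT1X and MT2A, the regulator MTF1, the exporter SLC30A1 and the importers SLC39A10 and SLC39A14. They are a list of gene symbols that was drawn up with earlier results of these data known. Of the 10, 8 had a row among the 34234 gene symbols used here, and MT1F and MT1M were not analysed here. A filter on low counts left 6 of the 8 among 17935 tested genes, and MT1E and MT1G did not pass it.

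Poly-A RNA was sequenced from HCCLM3, a human hepatocellular carcinoma line, after lentiviral delivery of either a control hairpin (shcontrol) or one directed at ATXN7L3 (shATXN7L3), with 3 libraries in each group. ATXN7L3 is an adaptor of the histone H2B deubiquitinase module of the SAGA coactivator. Both groups carried a lentivirus and were grown in DMEM with serum, and the virus medium was replaced after 16 h. The sources used here give neither the time from infection to harvest, nor the hairpin sequences, nor any selection of infected cells. Whether the replicates came from separate cultures is not labelled, and the p-values then reflect the library-to-library spread alone, which may be technical.

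Library totals lay between 22376867 and 23915783 counts. Levels are given as counts per 1000000 counts after TMM scaling (CPM). Groups were compared by edgeR's quasi-likelihood test, p was adjusted by Benjamini-Hochberg over every tested gene, and an adjusted p under 0.05 is a call. In CPM, the targeted gene stood at 36.4, 37.5 and 37.5 in shcontrol and at 20.6, 20.5 and 19.5 in shATXN7L3. Of 11 hepatocyte and hepatoma markers, 10 were in the counts, and 9 were tested. All 9 fell, beside 12.0% of all tested genes, but DESeq2 did not call AFP (adjusted p = 0.113) or TTR (0.0926), and the groups overlapped for KRT8. APOA1 was at 12 counts or fewer in every library. Fibroblast, endothelial and leukocyte markers were mostly under 1 CPM (6 of 7, 3 of 5 and 5 of 6). Their summed levels were 23.8 to 28.1 CPM in shcontrol against 5.48 to 6.24 in shATXN7L3 for the fibroblast list, carried by LUM. For the endothelial list they were 57.3 to 62.3 against 42.5 to 44.4, made up mostly of PECAM1 and KDR. PECAM1 fell (mean 43.7 to 28.0 CPM), while KDR did not pass the test (15.5 and 15.3 CPM). For the leukocyte list the sums were 90.3 to 109.6 against 120.3 to 125.6, carried by CD68, which was called higher. LYZ, the other tested leukocyte marker, was called lower, from a mean of 0.922 to 0.169 CPM. HCCLM3 is a cell line, so these lists are read as single genes and not as cell types present. A change in the share of cells that express a gene and a change in RNA per cell cannot be told apart in bulk samples. The part of these shifts in the results below was not tested.

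The results turn on 2 metallothionein genes that were called higher, MT2A not under every alternative, and on SLC30A1, which fell. The letters upstream of these genes are shown because MTF1 acts through a short motif there. The motif searched was the core of the metal response element, TGCACNC or TGCGCNC, on both strands. RefSeq promoter windows (GRCh38.p14, 250 bases before to 50 after the start) were found for 5 of the 10 members. Capitals mark the motif, also where it lies on the opposite strand, and each sequence reads 5′ to 3′ on the strand of its gene. The stretch of MT1X is chr16:56682220-56682423 (plus strand), which ends where the deposited gene model begins. That of SLC30A1 is chr1:211579162-211579411 (minus strand). The deposited SLC30A1 model has its 5′ end at 211578742, so the RefSeq start used for this window lies outside that model. The stretches of MT2A are chr16:56608426-56608451 and chr16:56608522-56608543 (plus strand). They lie inside the first exon of the longest deposited MT2A model and are therefore shown only around some of its matches.
MT1X: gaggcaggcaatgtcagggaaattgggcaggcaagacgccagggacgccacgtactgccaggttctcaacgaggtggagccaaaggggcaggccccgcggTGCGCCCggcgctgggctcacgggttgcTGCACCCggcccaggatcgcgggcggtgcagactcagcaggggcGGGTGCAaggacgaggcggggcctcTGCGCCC
SLC30A1: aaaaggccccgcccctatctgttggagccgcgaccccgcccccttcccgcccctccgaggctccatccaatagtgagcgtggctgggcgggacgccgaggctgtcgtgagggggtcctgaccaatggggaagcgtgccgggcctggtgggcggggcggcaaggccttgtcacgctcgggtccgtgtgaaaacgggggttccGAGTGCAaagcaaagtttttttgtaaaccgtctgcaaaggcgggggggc
MT2A, first stretch: ccgggTGCGCCCggcccagTGCGCGC
MT2A, second stretch: ggggctttTGCACTCgtcccgg

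Within the full windows the motif occurred 8 times for MT2A, 4 times for MT1X and 2 times for SLC30A1. No matches overlapped each other within a window. Counted from the RefSeq start, the MT1X matches began at -150, -122, -78 and -53, and the SLC30A1 matches at -49 and 25. The MT2A matches began at -246, -168, -153, -139, -88, -54, -8 and 31, and the stretches shown hold those at -153, -139 and -54. MTF1 had 0 matches, and SLC39A10 had 0 in one of its windows and 1 in the other. Of 35116 windows of the same length, 29.6% held at least 1 match, 8.60% at least 2 and 0.601% at least 4. A match is a string of letters and not a measured binding site.

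Of the 6 tested members, MT1X and MT2A rose, SLC30A1, SLC39A10 and SLC39A14 fell, and MTF1 did not pass the test. That is 5 of 6 called, beside 24.2% of all tested genes (12.2% higher and 12.0% lower), for a list that is no unselected sample of genes. DESeq2 called 1 of the 6 higher and 3 lower, beside 7.83% and 8.94% of all tested genes (16.8% together). The groups did not overlap in the same 5 members, beside 38.3% of all tested genes. MT1X, with 5, 7 and 11 reads in shcontrol and 24, 29 and 23 in shATXN7L3, passed the filter only through shATXN7L3. Its place in these counts is therefore not independent of its rise. The median log2 fold change of the 6 was -0.14, against 0.01 over all tested genes. The genes that rose were at low levels and those that fell at high levels, as the values per length below show.

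MT2A, usually the most abundant human metallothionein, lies on chromosome 16 from 56608199 to 56609497 (GRCh38). It had 22, 16 and 18 reads in the shcontrol libraries and 24, 32 and 61 in the shATXN7L3 libraries, which is 0.978, 0.736 and 0.791 CPM against 1.03, 1.33 and 2.55 CPM. The groups did not overlap, but shATXN7L3 replicate 1 stood just above the highest control and replicate 3 far above the rest. With 95% Poisson intervals, which cover counting error only, the 61 reads allow 46.7 to 78.4, above the intervals of the other shATXN7L3 libraries (15.4 to 35.7 and 21.9 to 45.2). The log2 fold change was 0.97 ± 0.30 (SE; edgeR adjusted p = 0.0249). The call ended without shATXN7L3 replicate 3 (log2 fold change 0.50, edgeR adjusted p = 0.248), without shcontrol replicate 2 (0.89, adjusted p = 0.0946) and with DESeq2 (adjusted p = 0.0513).

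MT1X (chromosome 16, 56682424 to 56684196) had 5, 7 and 11 reads in shcontrol and 24, 29 and 23 in shATXN7L3. In CPM these were 0.222, 0.322 and 0.483 against 1.03, 1.20 and 0.962, so the lowest shATXN7L3 library was well above the highest control. MT1X rose by 1.62 ± 0.31 on the log2 scale (SE; edgeR adjusted p = 6.79e-04), and the value without any 1 library lay between 1.39 and 1.95. It overlaps 321 exonic bases of the gene RP11-343H19.2 on the same strand, whose counts were nearly the same (5, 6 and 11 against 22, 25 and 22). How reads in such an overlap were counted is not stated, so the values of the pair are not taken as independent. Which gene of the pair the reads came from was not tested, so the rise may not be that of MT1X alone.

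MT1E and MT1G, which belong to the same cluster, were close to absent. MT1E had 0 reads in every shcontrol library and 0, 1 and 1 in shATXN7L3, and MT1G had 0 in every library except for 1 read in shATXN7L3 replicate 2. By the usual one-sided limit, a count of 0 allows up to 3 reads, or 0.138 CPM in the shallowest library (the two-sided 95% Poisson interval used above reaches 3.69 reads), so no difference was detectable for these genes at this depth. MT1A and the pseudogenes MT1P1 and MT1P3 had at most 3 reads in any library, and the other 12 names of the list of further metallothioneins were not analysed here. Metallothionein genes are near-identical copies, and the sources used here do not say how reads that match several places were counted, so a single gene's count is uncertain.

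The sum of the 4 measured metallothioneins does not depend on how reads are split among those 4 genes. It does depend on how reads were counted between MT1X and the gene that overlaps it. Reads that match several places may also have been dropped or counted for genes outside the 4. The part of either in the sum and its ratio was not tested. In reads, the sum was 27, 23 and 29 in shcontrol and 48, 63 and 85 in shATXN7L3. In CPM, the sum was 1.18 ± 0.110 against 2.75 ± 0.755 (SD, n = 3 each). The lowest shATXN7L3 sum was above the highest control sum, and the ratio of the means was 2.33, or 1.99 without shATXN7L3 replicate 3. MT1X made up 18.5% to 37.9% of the sum in shcontrol libraries and 50.0%, 46.0% and 27.1% in those of shATXN7L3. Against the control means, the gain in shATXN7L3 replicate 3 was mostly MT2A, and in replicates 1 and 2 mostly MT1X.

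**Figure D1:**
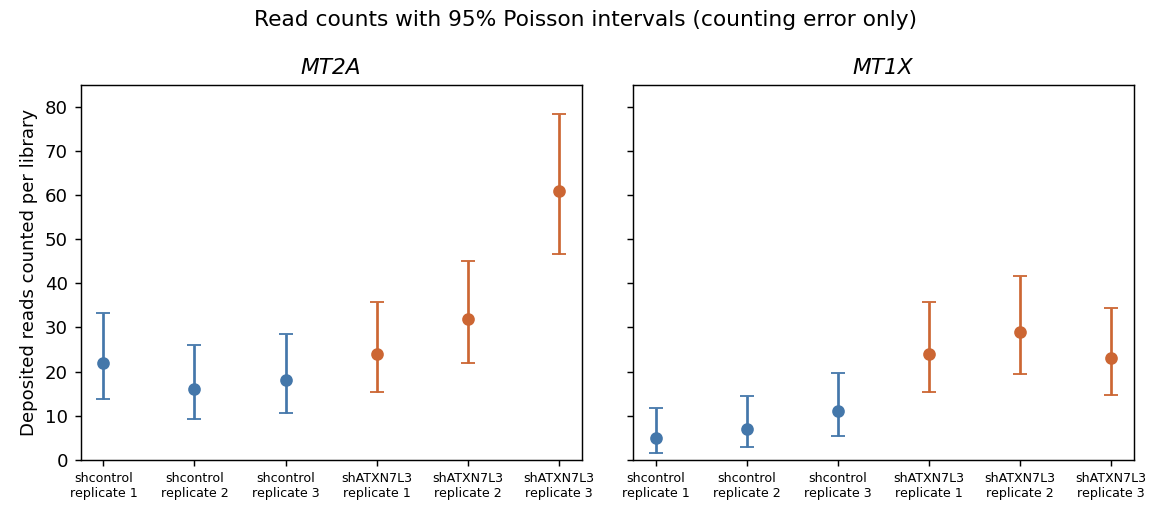
Deposited reads per library for MT2A (left) and MT1X (right); points are counts, bars are 95% Poisson intervals that cover counting error only, blue is shcontrol and orange shATXN7L3. MT1X runs from 5 to 11 reads in shcontrol and from 23 to 29 in shATXN7L3, while for MT2A the 61 reads of shATXN7L3 replicate 3 stand apart from the 16 to 32 of the other libraries.

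Metallothionein transcripts are short, so other short transcripts were looked at, after the low counts had been seen. The longest protein-coding transcript of MT2A in GENCODE 29 has 786 bases. Of 185 other tested genes whose longest protein-coding transcript is no longer than that, 101 had a mean level of at least 10 CPM and 28 of at least 100. Examples, also picked after their values were seen, are the ribosomal gene RPL39 (64.8 to 80.4 CPM over the 6 libraries), the actin-binding thymosin TMSB10 (161.6 to 255.8 CPM) and the calcium-binding S100A6 (427.2 to 535.7 CPM). The median over the 185 was 11.9 CPM, below the 19.8 CPM of the 12463 tested genes with a longer transcript. All of these genes had passed the filter on low counts, so short genes with few reads are left out. These values therefore cannot show how well short transcripts were captured. The part of transcript length in the low metallothionein counts was not tested.

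MTF1, the zinc sensor of this system (chromosome 1), had 23.9, 24.9 and 27.5 CPM in the shcontrol libraries against 25.8, 23.4 and 25.1 CPM in those of shATXN7L3. The groups overlapped. Its log2 fold change was -0.04 ± 0.065 (SE; edgeR adjusted p = 0.713), with -0.17 to 0.09 at ± 2 SE, and its sign changed with scaling by library size alone and without shcontrol replicate 3 or shATXN7L3 replicate 2. MTF1 activity depends on zinc binding and movement to the nucleus, which its mRNA level does not measure.

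SLC30A1, also called ZnT1, is the zinc exporter of the cell surface and lies on chromosome 1 from 211571568 to 211578742 (GRCh38, minus strand). Its 3 shcontrol libraries had 161.2, 151.3 and 157.6 CPM and its shATXN7L3 libraries 92.7, 91.4 and 92.2 CPM. All shATXN7L3 libraries were far below all controls and close to each other. SLC30A1 fell by 0.77 on the log2 scale (SE 0.044, edgeR adjusted p = 1.41e-10), which left 58.8% of the control level. The fall was between 0.72 and 0.79 under every alternative run. The counts of SLC30A1 and MT1X, both textbook targets of MTF1, thus moved in opposite directions, within the limit of the overlap given for MT1X. In these libraries so did those of SLC30A1 and MT2A, within the limits given for MT2A above.

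SLC39A10, a zinc importer of the cell surface known to be repressed when zinc is plentiful, lies on chromosome 2. Its levels in CPM were 114.9, 121.4 and 127.7 for shcontrol and 85.3, 81.1 and 79.5 for shATXN7L3, with a clear gap between the groups. SLC39A10 fell by 0.57 on the log2 scale (SE 0.049, edgeR adjusted p = 5.75e-08), to 67.5% of control. SLC39A14, which imports zinc, iron and manganese and is induced by interleukin 6 in the liver, lies on chromosome 8. It went from 119.5, 114.3 and 114.8 CPM to 101.2, 98.2 and 97.8 CPM. The groups did not overlap, but the change was small, with 85.2% of the control level left (log2 fold change -0.23 ± 0.044 SE, edgeR adjusted p = 6.14e-04).

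**Figure D2:**
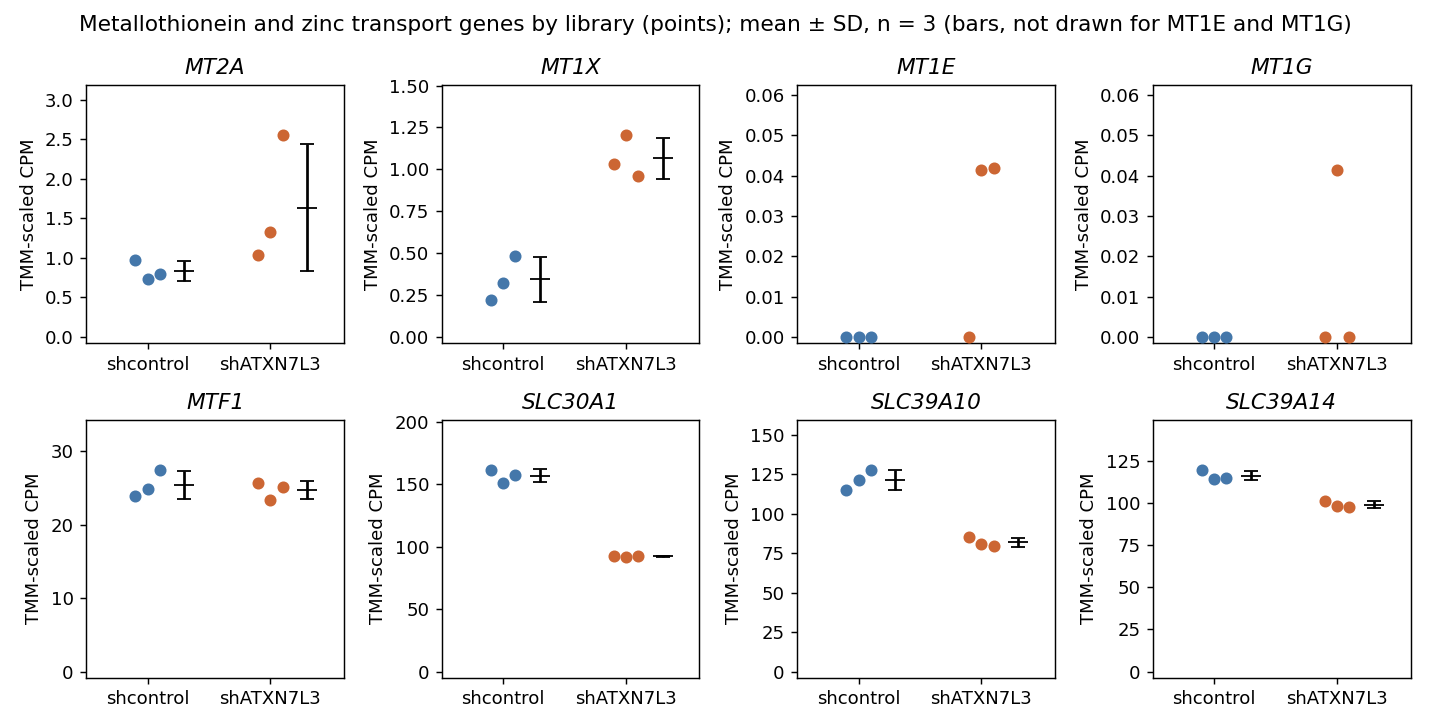
TMM-scaled CPM of the 8 measured members, 1 panel per gene with its own linear axis; points are single libraries (blue shcontrol, orange shATXN7L3) and bars the mean ± SD of 3 libraries, not drawn for MT1E and MT1G. MT2A and MT1X are at 2.55 CPM or below in all libraries, while SLC30A1 drops from 151.3 to 161.2 CPM to 91.4 to 92.7 CPM and MTF1 overlaps between groups.

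Levels between genes were compared per kilobase of the exonic length deposited with the counts, over the 8 measured members and all SLC30 and SLC39 genes in the counts. In shcontrol, SLC39A6 (74.6 CPM per kb), SLC39A1 (74.3) and SLC39A7 (61.3) led, and the ranges of SLC39A6 and SLC39A1 overlapped. SLC30A1 came next at 28.6 ± 0.923 CPM per kb, followed by SLC39A10 at 17.5 ± 0.926 and SLC39A14 at 16.7 ± 0.411 (SD, n = 3), and the ranges of SLC39A10 and SLC39A14 overlapped. MTF1 stood at 3.17 ± 0.230 CPM per kb. MT2A was at 0.643 ± 0.0974 and MT1X at 0.193 ± 0.0743 CPM per kb. Among all tested genes, 92.3% had a lower control level per length than SLC30A1, but 16.5% lower than MT2A and 4.37% lower than MT1X. The deposited lengths of MT2A (1299 bases) and MT1X (1773 bases) equal the whole span of each gene. Their longest protein-coding transcripts in GENCODE 29 have 786 and 538 bases. The levels per length of these genes are therefore lower than they would be per transcript length, and the effect on the ranking was not tested. In shATXN7L3 the order of the transporters changed in 1 place among the members: SLC39A14 (14.1 to 14.6 CPM per kb) was above SLC39A10 (11.5 to 12.3), without overlap.

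The other zinc transporters came from lists of both families. The SLC30 proteins carry zinc out of the cytosol, into vesicles, the Golgi or the medium. Of 5 other members tested, 1 fell and 0 rose (median log2 fold change -0.12), beside 12.0% and 12.2% of all tested genes. The 1 was SLC30A6, a partner of SLC30A5 in the early secretory pathway, with 54.1 ± 2.80 against 48.9 ± 1.43 CPM (shcontrol against shATXN7L3; -0.15 on the log2 scale; edgeR adjusted p = 0.0489). That call ended with DESeq2 (adjusted p = 0.106), limma voom (0.0506), library size alone (0.161) and no filter (0.0713), and without 5 of the 6 libraries in turn (0.0753 to 0.200), shcontrol replicate 3 being the exception. The SLC39 proteins bring zinc into the cytosol. Of 9 other members tested, 2 fell and 0 rose (median 0.03), beside the same 12.0% and 12.2%. With scaling by library size alone the counts were 2 and 2, and SLC39A4 and SLC39A9 passed as higher.

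The 2 that fell were SLC39A6 and SLC39A8. SLC39A6, which pairs with SLC39A10 in a complex, went down from 274.8 ± 17.4 to 229.2 ± 2.56 CPM (-0.26 ± 0.047 SE on the log2 scale; edgeR adjusted p = 3.56e-04). SLC39A8, an importer of zinc and manganese closely related to SLC39A14, fell from 10.1 ± 0.855 to 6.96 ± 0.327 CPM (-0.54 ± 0.094 SE, edgeR adjusted p = 2.30e-04). Over both families, 6 of 17 tested transporters fell and 0 rose, or 5 and 2 with scaling by library size alone. Beside the 12.0% of all tested genes called lower, that count includes the 3 transporters picked as members.

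**Figure D3:**
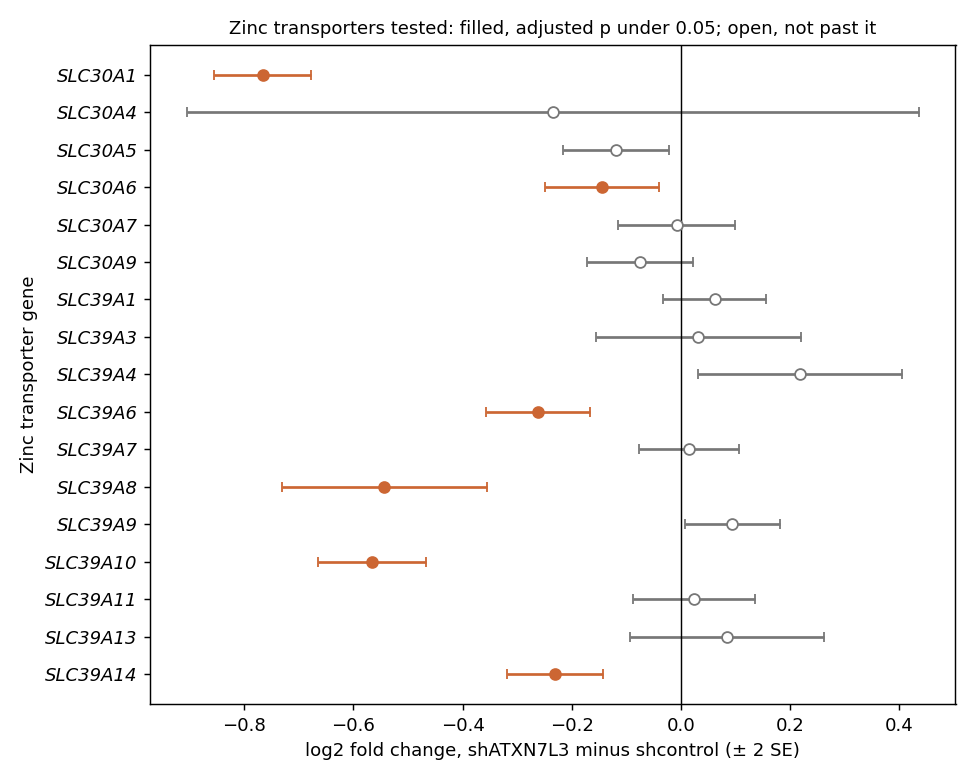
Log2 fold change (shATXN7L3 minus shcontrol, horizontal axis) of the 17 tested SLC30 and SLC39 genes, with bars of ± 2 SE; filled points have an edgeR adjusted p under 0.05 and open points do not. SLC30A1, SLC39A10 and SLC39A8 lie farthest to the left at -0.77, -0.57 and -0.54, and no filled point lies to the right of 0, although SLC39A4 and SLC39A9 passed as higher with scaling by library size alone.

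The metallothionein genes sit in 1 cluster, so the genes around it were described next. Of 21 other genes within 500 kb of the measured metallothioneins, 13 were tested. Among these 13, 1 rose and 1 fell (median log2 fold change -0.00), beside 12.2% and 12.0% of all tested genes. The 1 that rose was RP11-343H19.2 (1.54, edgeR adjusted p = 0.00131), which overlaps MT1X. Like MT1X, it passed the filter on low counts only through its shATXN7L3 libraries. The nearest tested genes on either side, BBS2, a subunit of the ciliary BBSome, and NUP93, a nuclear pore protein, had log2 fold changes of 0.01 ± 0.058 and -0.00 ± 0.070 (SE), and are named after their values were seen.

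**Figure D4:**
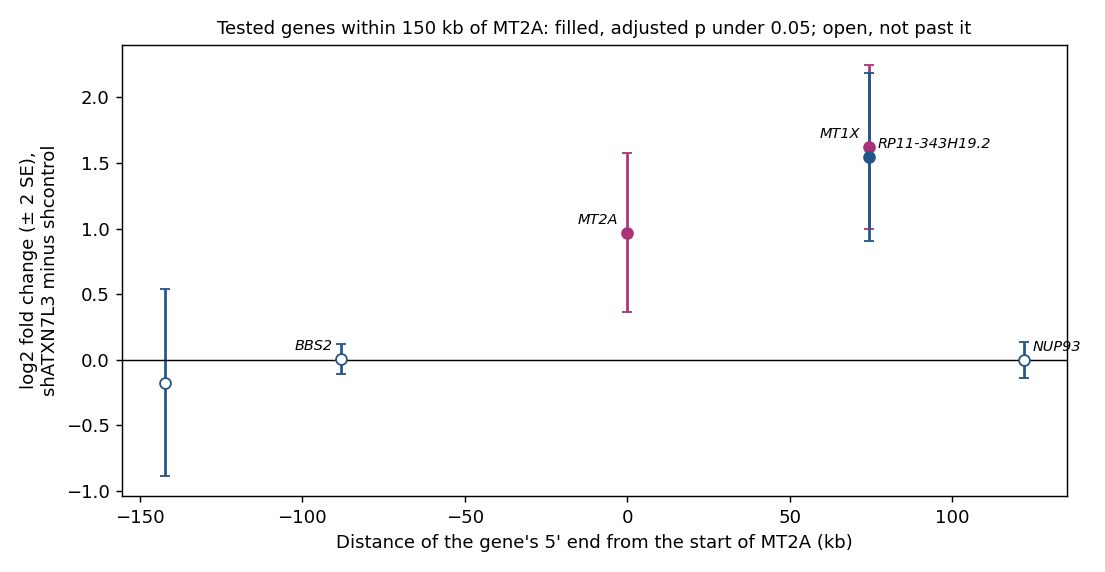
Log2 fold change (shATXN7L3 minus shcontrol, ± 2 SE) of tested genes within 150 kb of the start of MT2A against the distance of their 5' end from the start of MT2A in kb; metallothioneins are purple, other genes blue, and filled points have an edgeR adjusted p under 0.05. MT2A (0.97), MT1X (1.62) and the overlapping RP11-343H19.2 (1.54) stand above BBS2 (0.01) and NUP93 (-0.00), whose bars cross 0.

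Metallothionein genes also respond to glucocorticoids, to interleukin 6 signalling and to metal stress, and these lists were counted in the same fit. Of 8 tested glucocorticoid genes, 2 rose and 1 fell (median log2 fold change 0.05), beside 12.2% and 12.0% of all tested genes. FKBP5, a chaperone partner of the receptor, rose from 65.0 ± 4.86 to 76.6 ± 1.54 CPM, and KLF9, a transcription factor, from 1.57 ± 0.398 to 3.19 ± 0.137 CPM (edgeR adjusted p = 0.00235 and 2.67e-04). NR3C1, the receptor itself, fell, at -0.18 on the log2 scale (edgeR adjusted p = 0.0127), a call lost with library size alone (0.0678) and without shATXN7L3 replicate 2 (0.0899). The other 5 did not pass.

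Of 11 tested interleukin 6 and STAT3 genes, 3 rose and 5 fell (median -0.02), beside 12.2% and 12.0% of all tested genes. SOCS3, the feedback inhibitor of the pathway, went from 4.78 ± 0.535 up to 10.7 ± 0.552 CPM (edgeR adjusted p = 5.91e-08). The fibrinogen chains fell: FGB from 89.0 ± 7.43 to 54.9 ± 3.19 CPM, FGA from 18.4 ± 0.709 to 9.83 ± 0.754 CPM, and FGG from 2.71 ± 0.576 to 0.874 ± 0.299 CPM (edgeR adjusted p = 4.08e-08, 4.06e-08 and 3.16e-05). The list thus held members that moved in both directions. Without shcontrol replicate 1 the number that rose was 5.

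Of 11 tested genes of metal and proteotoxic stress, 1 rose and 5 fell (median -0.11), beside 12.2% and 12.0% of all tested genes. GCLC, the catalytic subunit of glutathione synthesis, fell from 183.3 ± 0.712 to 133.2 ± 1.35 CPM (edgeR adjusted p = 9.01e-08), and the thioredoxin reductase TXNRD1 from 2699 ± 63.8 to 2249 ± 18.7 CPM (9.12e-05). The heat shock genes HSPA1A and HSPA1B, near-identical copies whose reads may be split or counted for both, fell with log2 fold changes of -0.44 and -0.46 (edgeR adjusted p = 2.24e-06 and 2.55e-06). HSPB1, a small heat shock protein named after its values were seen, was the 1 that rose, by 0.32 on the log2 scale. HMOX1, a haem-degrading enzyme induced by cadmium and other metals and named after its values were seen, had 0.07 ± 0.049 (SE; edgeR adjusted p = 0.301).

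Copper binds to metallothioneins as well. Of 12 tested genes of copper handling, 2 rose and 3 fell (median 0.08), beside 12.2% and 12.0% of all tested genes. Ceruloplasmin, CP, the copper-carrying ferroxidase of plasma, dropped from 584.0 ± 45.6 CPM to 339.1 ± 10.6 CPM with an edgeR adjusted p of 8.80e-10. The log2 fold change of the copper pump ATP7A was -0.23 (edgeR adjusted p = 0.00150), and COX17, a copper chaperone of mitochondria, rose by 0.33 (8.08e-04). COMMD1, a copper export factor, passed as higher at 0.28 (edgeR adjusted p = 0.0231), a call lost with DESeq2 (0.108) and when shcontrol replicate 3 (0.0607), shATXN7L3 replicate 1 (0.0933) or shATXN7L3 replicate 2 (0.0978) was left out. The importer SLC31A1, named after its values were seen, had a log2 fold change of -0.02 ± 0.044 (SE).

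The genes whose log2 CPM followed MT2A most closely over the 6 libraries, among 9478 genes with a mean of at least 10 CPM, were PTPN23, IGFBP3, GTPBP6, DPP7 and ARAF (Pearson r 0.992, 0.988, 0.986, 0.976 and 0.975). With 6 points that fall into 2 groups, such values describe these libraries only. Like MT2A, all of these genes were highest in shATXN7L3 replicate 3, which follows largely from choosing them by their correlation with MT2A. Only IGFBP3, an IGF-binding protein, was called (edgeR adjusted p = 0.00430, against 0.0926 to 0.201 for the others). IGFBP3 had 34.9 CPM in that library against 24.6 and 26.9 CPM in the other shATXN7L3 libraries and 21.2 to 22.5 CPM in shcontrol.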

How the data were processed

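The authors deposited raw counts of reads for each gene symbol, with no normalization. The submitters' processing notes list the build GRCh38, Subread 1.5.1 (featureCounts), STAR 2.5.3a, Trimmomatic 0.36 and edgeR 3.12.1. The sources used here name no annotation release, strand setting or rule for reads that match several places. The treatment label gave the groups, and the titles gave the replicate numbers. Genes were filtered with filterByExpr (minimum count 10, minimum total 15), scaled by TMM and tested with glmQLFit and glmQLFTest of edgeR 4.0.16 in R 4.3.3 (group as the only term, Benjamini-Hochberg over 17935 genes). The SE is the log2 fold change divided by the square root of F, an approximation. Alternatives were other scalings and filters, DESeq2 1.42.0, limma voom (limma 3.58.1), a replicate block and each library left out. The procedure was tested on simulated data. Members and lists were chosen with earlier results of these data known. Named genes are the members, ATXN7L3, from each related list up to 4 called genes with the smallest p (2 by CPM if none passed), and the 5 genes most correlated with MT2A. Cell type markers, cluster neighbours, HSPB1, HMOX1, SLC31A1 and short-transcript examples named outside this rule were chosen after their values were seen. Library totals of 22376867 to 23915783 counts make 3 reads about 0.13 CPM, and counting error alone is large for the metallothioneins. Members without a row are not analysed here, and 1 gene that the rule names is not reported here.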

Additional observations from a re-analysis of the deposited data

How the results depend on the processing

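The falls of SLC30A1, SLC39A10 and SLC39A14 and the rise of MT1X kept their direction and call under every alternative that tested them; MT1X did not pass the stricter filter (at least 1 CPM in at least 3 libraries). MT2A had a log2 fold change of 0.97 with DESeq2 (adjusted p = 0.0513) and of 0.50 to 1.21 with 1 library left out. MTF1 was at 0.0029 with library size alone and at -0.084 to 0.016 with 1 library left out. The number of members higher became 1 with DESeq2, 1 with the CPM filter and 1 to 2 with 1 library left out. Over all tested genes, DESeq2 called 1405 higher instead of 2182, library size alone called 2955 higher and 1604 lower, and leaving out 1 library gave 1543 to 2224 higher. Other SLC30 genes lower became 0 with library size alone, 0 with no filter, 0 with DESeq2, 0 with limma voom and 0 to 2 with 1 library left out. Other SLC39 genes higher became 2 with library size alone. Copper genes higher became 1 with DESeq2 and 1 to 2 with 1 library left out. Glucocorticoid genes lower became 0 with library size alone and 0 to 2 with 1 library left out. With 1 library left out, interleukin 6 genes higher were 2 to 5 and stress genes higher 1 to 2. Cluster neighbours higher became 0 with the CPM filter, and those lower 0 with library size alone, 0 with DESeq2 and 0 to 1 with 1 library left out. The cause was not tested, except that the CPM filter leaves MT1X and RP11-343H19.2 out. With no filter, MT1E and MT1G had adjusted p = 0.524 and 0.618. With the replicate number as a block, MT2A had 0.95 (adjusted p = 0.0121) and no member changed its call; same-numbered libraries correlated at -0.016, 0.0051 and 0.044 in their deviations from the group means, so the numbers were not taken to pair them.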
